A study of Homo sapiens with 2 samples.

Results

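The genes described here are the transcription factors that drive the epithelial-mesenchymal transition (EMT), namely the SNAI, TWIST and ZEB factors, together with vimentin, the mesenchymal cadherins CDH2 and CDH11, and S100A4. They are 10 gene symbols, matched to the Entrez gene numbers of the deposited table. The rule names genes and uses no measured value, but the group was proposed with earlier results of these data known. Of the 10 genes, 9 had a row among the 16021 rows of the table and 7 of these reached a mean of 1 FPKM over both libraries, while TWIST2 is not analysed here. FPKM is the number of sequenced fragments scaled by transcript length and by the mapped fragments of the library. RNA was sequenced from HGC-27 cells, an established line labelled gastric adenocarcinoma, transduced with a lentivirus carrying either a control shRNA with no target or a DDX5 shRNA. DDX5 is an RNA helicase that also acts as a transcriptional coregulator. In both groups puromycin was added after 48 h, and cells were harvested 1 week later. Each group was 1 library of puromycin-selected cells, so no value has a replicate error, no test was possible, and a difference between both libraries has not been set against the spread between cultures.

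EMT is the process by which epithelial cells lose cell-cell junctions and polarity and take on a migratory, mesenchymal state. SNAI1 and SNAI2 are zinc finger repressors, ZEB1 and ZEB2 are zinc finger and homeodomain repressors, and TWIST1 is a basic helix-loop-helix factor that binds DNA as a dimer with E-proteins. All of these factors bind E-box sites, and SNAI and ZEB factors silence junction genes such as the E-cadherin gene CDH1 through them. Vimentin, N-cadherin (CDH2), cadherin-11 (CDH11) and the calcium-binding protein S100A4 are widely used as readouts of the mesenchymal state. In gastric carcinoma these markers are associated with the diffuse, poorly cohesive type.

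The E-box letters that SNAI and ZEB factors recognise are shown here upstream of 2 genes of the group and 4 epithelial genes. The results on the factors and on epithelial genes are read side by side. The sequences come from RefSeq (GRCh38.p14), run 5′ to 3′ on the strand of the gene, and the capitals mark CAGGTG or its reverse complement CACCTG, so that both strands are covered.
ZEB1 (chr10:31319119-31319148, plus strand): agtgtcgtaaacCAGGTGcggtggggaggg
S100A4 (chr1:153545953-153545982, minus strand): cccacgggtgccCACCTGggaacaggaggc
CLDN7 (chr17:7262479-7262508, minus strand): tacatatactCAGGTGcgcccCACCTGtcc
CRB3 (chr19:6464041-6464070, plus strand): tgCAGGTGtaaggtccccctcaCACCTGcg
JUP (chr17:41786008-41786037, minus strand): ctggcccCACCTGccgagCAGGTGagcgca
MUC1 (chr1:155192977-155193006, minus strand): gggttttgtCACCTGtCACCTGctccggct

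These stretches of 30 bases lie within the 250 bases before an annotated start. In that window the claudin gene CLDN7 held 4 matches at 1 of its 2 starts and the polarity gene CRB3 held 5. Of all 35116 windows of that length, 17.5% held at least 1 match, 2.53% at least 2 and 0.122% at least 4. Among the EMT genes, 6 of 10 had a window in RefSeq, and 3 of their 13 windows held a match, belonging to ZEB1, which has 7 of the windows, and S100A4. SNAI1, SNAI2, TWIST1 and CDH11 were not matched to a window. Among 24 epithelial genes, 14 had a window, and 11 of their 21 windows, belonging to 9 genes, held a match. Windows from alternative starts of 1 gene can overlap, so a site can be counted more than once. MUC1, for example, had matches at -82 and -75 in 1 window and at -88 and -81 in the other. CDH1, EPCAM, PKP2, KRT18, KRT19, ESRP1, ESRP2, GRHL2, OVOL1 and OVOL2 were not matched to a window. The 4 epithelial genes printed above were taken from the 5 with 2 or more matches in a window. The epithelial list was drawn up partly from genes known for E-box control, so its share is not an independent finding. The matches are letters in a window and not measured binding.

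The targeted gene, DDX5, had 170.5 FPKM with the non-targeting shRNA and 50.78 FPKM with its own shRNA, which is 29.8% of the control. The spacing of low FPKM values of short genes put the depth at about 1.47e+07 and 1.45e+07 fragments. Of 11413 genes at a mean of 1 FPKM or more, 4.19% were 2-fold higher or more in the DDX5 shRNA library and 2.26% were 2-fold lower or more, with a median log2 ratio of 0.02. Here and throughout, log2 ratios are of FPKM + 1, DDX5 shRNA over non-targeting shRNA, and 2-fold refers to that scale. When both libraries were set to the same total FPKM, the median of all genes moved to -0.08, and higher genes made up 50% of the 2-fold differences in place of 64.9%. The epithelial origin in the label was checked against markers. Of 8 epithelial markers, 7 had a row and KRT19 had none. Of the 7 with a row, 5 (EPCAM, CDH1, KRT18, CLDN3 and CLDN4) lay below 1 FPKM in both libraries. Of 12 gastric markers, 6 had a row, while MUC5AC, TFF1, TFF2, GKN1, GKN2 and PGC had none. Of the 6 with a row, 3 lay below 1 FPKM in both (MUC6, CLDN18 and SOX2). The remaining 3 (MUC1, CDX2 and GATA6) were at 1 FPKM or more in both. Whether these 3 genes are particular to the stomach was not tested.

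Among the EMT transcription factors, TWIST1, SNAI2, ZEB2 and ZEB1 were higher in the DDX5 shRNA library and SNAI1 was lower. TWIST1 showed the widest difference, at 2.01 times its control level, and SNAI2 followed at 1.78 times. The markers VIM and S100A4 were lower, at 80.2% and 72.8% of the control level, and the cadherins CDH2 and CDH11 were close to 0 in both libraries. Of the 7 genes at a mean of 1 FPKM or more, 1 was 2-fold higher (TWIST1) and 0 were 2-fold lower, beside 4.19% and 2.26% of all genes. The median log2 ratio of the 7 genes was 0.27, and over all 9 genes with a row it was 0.04. In the plot of levels by gene, the factors span 18.8 times from ZEB2 to TWIST1 in the control and 24.0 times after DDX5 shRNA.

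**Figure D1:**
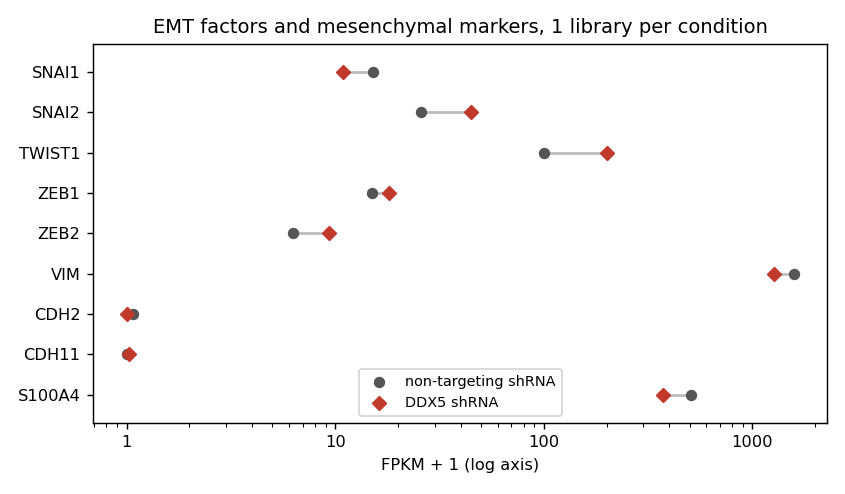
FPKM + 1 on a log axis for the 9 EMT genes with a row, in the non-targeting library (grey circles) and the DDX5 shRNA library (red diamonds), 1 library each and no error bars. TWIST1, SNAI2, ZEB2 and ZEB1 lie to the right in the DDX5 shRNA library, and SNAI1, VIM and S100A4 to the left. CDH2 and CDH11 lie at or next to 1, which stands for 0 FPKM.

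TWIST1, a factor needed in mesoderm and neural crest development, was the most abundant of the EMT factors. It had 98.96 FPKM in the control and 199 FPKM after DDX5 shRNA, a log2 ratio of 1.001, worth about 2240 and 4456 fragments. Its level ranked 763 among all 16021 rows in the control and 329 after DDX5 shRNA. By ratio it ranked 475 from the highest of 11413 genes. Of the 500 genes nearest to it in mean level, 25 had a ratio as high or higher. The gene sat on the 2-fold line: its log2 ratio ran from 0.89 to 1.01 over 8 alternative settings, and 3 of the 8 kept it at 1 or more. Dropping or raising the level filter cannot change the ratio of a gene. Of these 3, only the pseudocount of 0.1 recomputed it. An antisense gene overlaps 6.94% of its exonic bases.

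SNAI2, also called Slug, stood at 24.66 FPKM in the control and 43.98 FPKM after DDX5 shRNA, a log2 ratio of 0.81, with 47 of the 500 nearest genes as high or higher. SNAI1, also called Snail, went the other way, from 14.17 to 9.87 FPKM, a log2 ratio of -0.48, with 63 of the 500 nearest genes as low or lower. These values are worth about 834 and 1472 fragments for SNAI2 and about 325 and 224 for SNAI1. The paralogs thus differed in opposite directions between the libraries. SNAI2 was 1.74 times as abundant as SNAI1 in the control and 4.46 times after DDX5 shRNA. A ratio of genes within a library does not depend on how libraries are scaled, so the SNAI2 to SNAI1 ratio was 2.56 times higher in the DDX5 shRNA library under any scaling.

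ZEB1 stood at 14 FPKM in the control and 17.13 FPKM after DDX5 shRNA, a log2 ratio of 0.27, which 151 of the 500 nearest genes matched or exceeded. ZEB2 was the least abundant factor, at 5.27 and 8.29 FPKM, a log2 ratio of 0.57, with 83 of the 500 nearest genes as high or higher. ZEB1 exceeded ZEB2 by 2.66 times in the control and by 2.07 times after DDX5 shRNA. The antisense genes ZEB1-AS1 and ZEB2-AS1 overlap 4.23% and 5.18% of the exonic bases of ZEB1 and ZEB2. Since the use of strand in counting is not given in the sources used here, reads from these overlaps cannot be assigned to either gene.

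Added together, the 5 factors with a row came to 157.06 FPKM in the control and 278.27 FPKM after DDX5 shRNA. TWIST1 made up 63% of that sum in the control and 71.5% after DDX5 shRNA. The order of levels in the control was TWIST1, SNAI2, SNAI1, ZEB1 and ZEB2, and after DDX5 shRNA it was TWIST1, SNAI2, ZEB1, SNAI1 and ZEB2. SNAI1 and ZEB1, neighbours in that order, differed by 0.17 FPKM in the control. With 1 library each, no order between neighbours can be set against a spread. Relative to SNAI1, TWIST1 was 6.98 times as abundant in the control and 20.2 times after DDX5 shRNA, and relative to SNAI2 it was 4.01 and 4.52 times as abundant.

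**Figure D2:**
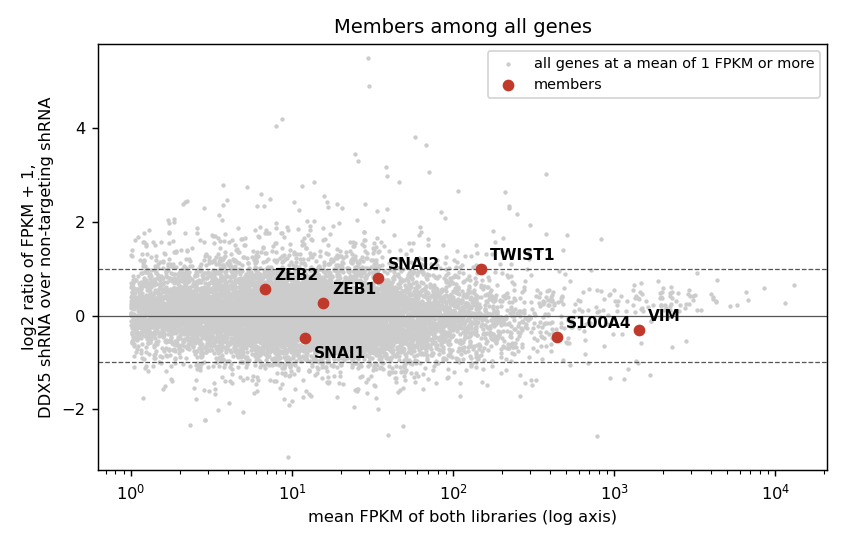
Log2 ratio of FPKM + 1 (DDX5 shRNA over non-targeting shRNA) against mean FPKM on a log axis, for 11413 genes at a mean of 1 FPKM or more (grey) and the 7 EMT genes among them (red), with dashed lines at 2-fold. TWIST1 lies on the upper line at 1.001, and the other 6 genes lie between -0.48 and 0.81, inside both lines.

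Vimentin, the main intermediate filament protein of mesenchymal cells, was one of the most abundant transcripts. VIM stood at 1583.62 FPKM in the control and 1270.59 FPKM after DDX5 shRNA, ranks 63 and 75 of 16021 rows, with a log2 ratio of -0.32. Of the 500 genes nearest in level, 133 were as low or lower. At this height the nearest genes reach down to 141 FPKM, so they are a loose comparison, as they are for S100A4. S100A4, a calcium-binding protein linked to motility, stood at 509.37 and 371.01 FPKM, ranks 137 and 194, with a log2 ratio of -0.46 and 106 of the 500 nearest genes as low or lower. Both markers were thus in the top 1.21% of rows in each library and lower after DDX5 shRNA, while 4 of the 5 factors were higher. Of all 11413 genes at a mean of 1 FPKM or more, 5931 had a log2 ratio above 0. The antisense gene VIM-AS1 overlaps 12.4% of the exonic bases of VIM.

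CDH2, the N-cadherin gene, was listed at 0.07 FPKM in the control, worth about 4 fragments, and at 0 in the DDX5 shRNA library. CDH11 was listed at 0 and 0.03 FPKM, the latter worth about 3 fragments. At this depth neither gene allows a fold or a direction. The cadherins that mark the mesenchymal state were thus at or near 0 in both libraries, while VIM and S100A4 were among the most abundant rows.

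Other cadherins were read to see which family members these cells transcribe. Of 18 listed, 14 had a row and 5 reached a mean of 1 FPKM, with a median log2 ratio of 0.12. In either direction 0 of the 5 were at 2-fold, beside 4.19% of all genes 2-fold higher and 2.26% lower. CDH6, a type II cadherin known from kidney and neural crest, was the most abundant at 32.38 and 21.84 FPKM, a log2 ratio of -0.55. CDH24 stood at 10.53 and 7.69 FPKM and CDH7 at 6.54 and 7.17 FPKM, followed by CDH10 at 2.01 and 3.08 FPKM and CDH19 at 0.59 and 1.41 FPKM. CDH1, the E-cadherin gene that SNAI and ZEB factors silence, was listed at 0.36 and 0.07 FPKM, about 25 and 5 fragments. Catenins and related genes were read beside them. Of 9 genes listed, with vinculin among them, 5 passed the level filter and their median log2 ratio was -0.28. Of the 5, 0 were at 2-fold, beside the same shares of all genes. CTNNB1, beta-catenin, stood at 43.73 and 35.92 FPKM, CTNNA1, alpha-catenin, at 84.06 and 80.08 FPKM, and CTNND1, p120-catenin, at 42.13 and 42.16 FPKM. VCL, vinculin, stood at 83.01 and 63.49 FPKM and CTNNAL1 at 42.13 and 32.62 FPKM.

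TWIST1 works with E-proteins, and ID proteins hold E-proteins away from it. Of 9 genes listed, which also include the helix-loop-helix factor genes HAND1 and HAND2, 8 had a row and 6 passed the level filter. The median log2 ratio of the 6 was 0.26, and 0 were 2-fold higher or lower, beside 4.19% and 2.26% of all genes. The E-protein genes TCF3, TCF12 and TCF4 stood at 85.05 and 76.39 FPKM, 65.42 and 90.67 FPKM, and 15.11 and 17.76 FPKM. Their sum was 165.58 FPKM in the control and 184.82 FPKM after DDX5 shRNA, beside 98.96 and 199 FPKM for TWIST1. TWIST1 was 1.16 times as abundant as TCF3 in the control and 2.61 times after DDX5 shRNA. The inhibitors ID1, ID2 and ID3 summed to 282.48 and 348.9 FPKM. ID3 stood at 135.97 and 188.67 FPKM, ID2 at 39.8 and 48.93 FPKM, and ID1 at 106.71 and 111.3 FPKM, a log2 ratio of 0.06 that became -0.05 at the same total.

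SNAI and ZEB factors repress through chromatin enzymes. Of 13 corepressor genes, all 13 passed the level filter and 0 were 2-fold higher or lower, beside 4.19% and 2.26% of all genes. A log2 ratio below 0 was seen for 9 of the 13, beside 5455 of all 11413 genes. The median of the 13 was -0.10. SMARCA4, the BRG1 remodelling ATPase, was furthest from 0 at 138.18 and 82.26 FPKM, a log2 ratio of -0.74. The Polycomb genes EZH2 and SUZ12 stood at 51.85 and 37.86 FPKM and at 31.32 and 23.19 FPKM. KDM1A, the LSD1 demethylase that binds SNAI1, stood at 59.29 and 47.17 FPKM, and SETDB1 at 12.73 and 15.63 FPKM.

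SNAI proteins are short-lived, and kinases and ubiquitin ligases set their amount. Of 14 genes listed, which also include the deubiquitinase genes USP9X and USP27X, 14 passed the filter. Among them, 0 were 2-fold higher or lower, beside 4.19% and 2.26% of all genes. The median log2 ratio was 0.08, or -0.02 at the same total. PAK1, a kinase that acts on SNAI1, stood at 12.72 and 6.99 FPKM. GSK3B, which marks SNAI1 for degradation, stood at 7.52 and 11.53 FPKM, and the ligase gene FBXL14 at 3.43 and 5.43 FPKM. COPS2, a COP9 signalosome subunit, stood at 38.77 and 27.63 FPKM and CSNK1E, a casein kinase gene, at 33.27 and 41.66 FPKM. SNAI protein amounts were not measured.

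Other transcription factors tied to EMT gave 9 of 15 genes past the filter and a median log2 ratio of 0.14. Among the 9, 0 were 2-fold higher or lower, beside 4.19% and 2.26% of all genes. SOX4 stood at 15.39 and 25.44 FPKM and PRRX1, a mesenchymal homeobox factor, at 58.14 and 82.13 FPKM. FOXM1, a cell cycle factor, was lower at 73.55 and 45.48 FPKM. TCF7L2 and HMGA2 stood at 2.57 and 3.94 FPKM and at 4.88 and 3.89 FPKM.

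TGF-beta signalling induces SNAI and ZEB genes through SMAD proteins. Of 13 genes, 12 passed the filter, 0 were 2-fold higher and 1 was 2-fold lower, beside 4.19% and 2.26% of all genes, with a median log2 ratio of -0.16. The gene 2-fold lower was SMAD6, an inhibitory SMAD, at 14.49 and 6.4 FPKM, a log2 ratio of -1.07 that fell short of 2-fold with a pseudocount of 5. The ligand genes TGFB1 and TGFB2 stood at 56.53 and 42.33 FPKM and at 2.41 and 1.79 FPKM. The receptor gene TGFBR1 stood at 10.83 and 12.91 FPKM, whereas its partner TGFBR2, needed for the canonical response, was listed at 0.2 and 0.02 FPKM, about 13 fragments and 1. The co-receptor gene TGFBR3 stood at 1.36 and 0.96 FPKM. SMAD2 stood at 12.47 and 17.87 FPKM.

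**Figure D3:**
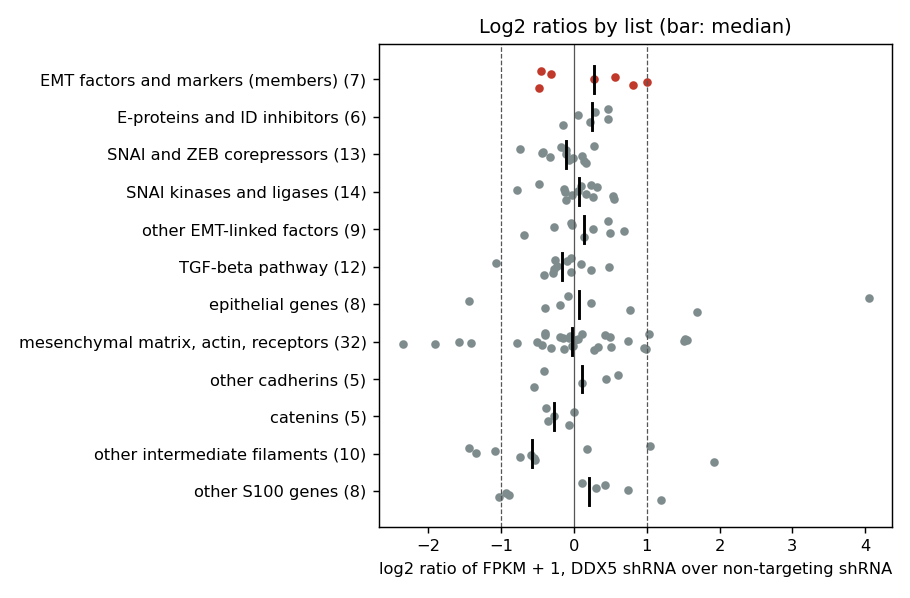
Log2 ratio of FPKM + 1 (DDX5 shRNA over non-targeting shRNA) of each gene at a mean of 1 FPKM or more, by list, with the number of such genes in brackets, black bars at the medians and dashed lines at 2-fold. The EMT genes (red) run from -0.48 to 1.001 around a median of 0.27, and the mesenchymal matrix, actin and receptor list has 4 genes past each line.

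The listed epithelial genes were mostly below the level filter. They include genes known for E-box control and genes that maintain the epithelial state, and not all are known targets of EMT factors. Of 24 listed, 21 had a row and 8 reached a mean of 1 FPKM, of which 2 were 2-fold higher and 1 was 2-fold lower, beside 4.19% and 2.26% of all genes, with a median log2 ratio of 0.08 (0.00 at the same total). That mean is over both libraries. ESRP1 and OCLN were below 1 FPKM in the control and passed only through the DDX5 shRNA library, so the count and median partly reflect the filter. CLDN7, which holds 4 E-box matches upstream of 1 start, stood at 2.36 FPKM in the control and 9.84 FPKM after DDX5 shRNA, about 62 and 257 fragments. ESRP1, which directs epithelial splicing, had 0.02 and 15.92 FPKM, about 1 and 851 fragments. KRT8, a keratin of simple epithelia, was lower at 5.24 and 1.31 FPKM, by less than 2-fold with a pseudocount of 5 (log2 ratio of -0.70), and its usual partner KRT18 was listed at 0.1 and 0.16 FPKM. OCLN, a tight junction gene, stood at 0.53 and 1.6 FPKM and the desmosome gene DSP at 3.16 and 2.17 FPKM. EPCAM was listed at 0.04 and 0.39 FPKM, about 1 and 9 fragments. The other genes with printed E-box letters stood at 0.28 and 0.54 FPKM (CRB3), 0.13 and 0.22 FPKM (JUP) and 6.12 and 7.41 FPKM (MUC1). Of these, MUC1 and CLDN7 passed the level filter and CRB3 and JUP did not.

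**Figure D4:**
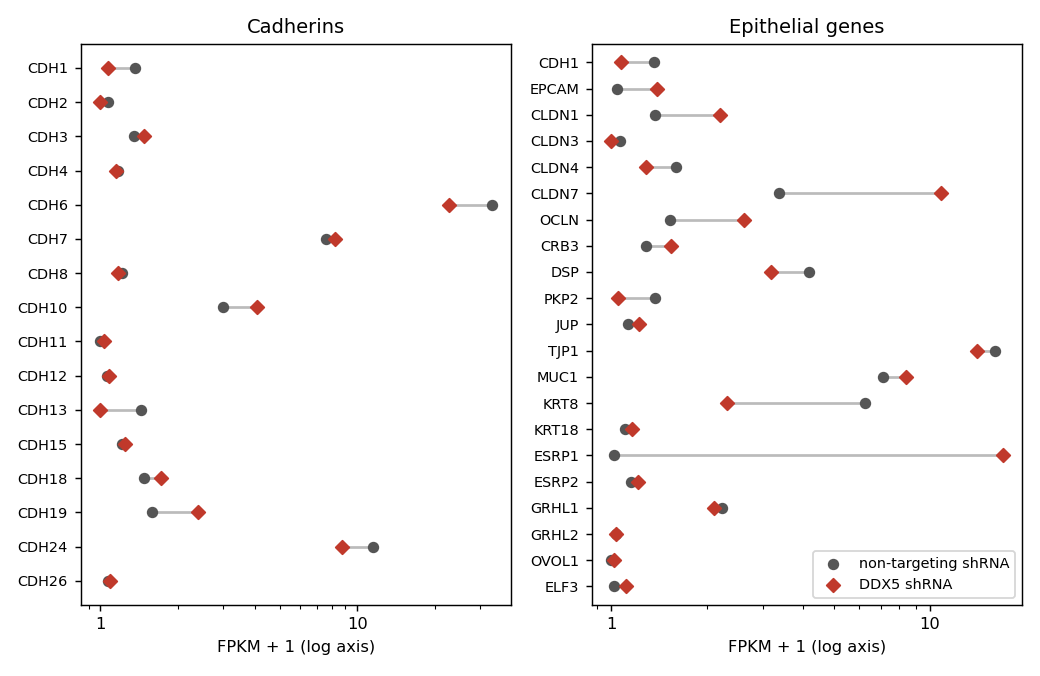
FPKM + 1 on log axes for the cadherin genes with a row (left) and the epithelial genes with a row (right), non-targeting library as grey circles and DDX5 shRNA library as red diamonds, 1 library each and no error bars. CDH6 leads the cadherins at 32.38 and 21.84 FPKM with CDH1, CDH2 and CDH11 near 1, which stands for 0 FPKM, and ESRP1, CLDN7 and KRT8 show the widest distances among epithelial genes.

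Mesenchymal matrix, cytoskeleton and receptor genes differed in both directions. Of 39 listed, 32 passed the filter, 4 were 2-fold higher and 4 were 2-fold lower, beside 4.19% and 2.26% of all genes, with a median log2 ratio of -0.02. The contractile genes ACTA2, TAGLN, MYL9 and CALD1 were the 4 lower ones, with ACTA2 at 82.22 and 15.31 FPKM, TAGLN at 15.68 and 3.44 FPKM and MYL9 at 37.37 and 11.81 FPKM. The 4 higher ones were the fibronectin receptor subunit gene ITGA5, at 28.06 and 84.64 FPKM, the receptor kinase gene AXL, at 5.65 and 18.17 FPKM, the membrane metalloproteinase gene MMP14, at 44.46 and 128.72 FPKM, and the proteoglycan gene DCN, at 68.13 and 140.68 FPKM. DCN fell short of 2-fold at the same total and with a pseudocount of 5, leaving 3 higher genes. CALD1, MMP14 and DCN were named after their values were seen. FN1, the fibronectin gene, stood at 4.76 and 5.99 FPKM. VIM and S100A4, with log2 ratios of -0.32 and -0.46, lay between these groups.

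Markers of other cell types were read in the same libraries. Of 9 fibroblast markers, 8 were at 1 FPKM or more in both libraries, and their sum was 1000.28 FPKM in the control and 1517.37 FPKM after DDX5 shRNA. COL3A1, a collagen gene named after its values were seen, accounted for 461.55 FPKM of that difference, at 482.44 and 943.99 FPKM. Of the 8 markers past the level filter, 4 had a log2 ratio above 0 and 4 below, with a median of 0.02. Of 5 smooth muscle and pericyte markers, ACTA2 made up most of a sum of 83.74 and 17.33 FPKM, and MYH11 was listed at 0.11 and 0.07 FPKM. Endothelial markers (3 of 5 with a row) summed to 0.07 and 0.1 FPKM, and haematopoietic markers (3 of 5 with a row) to 2.5 FPKM in both. Gastric markers (6 of 12 with a row) summed to 12.48 and 15.84 FPKM and epithelial markers (7 of 8 with a row) to 8.75 and 12.05 FPKM. Several fibroblast markers are also mesenchymal genes of the lists above, and the part of any other cell type in the differences was not tested. In bulk RNA, fewer cells of one kind and less RNA per cell cannot be told apart.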

How the data were processed

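RNA-seq was done on 1 library per condition. The authors deposited 1 table of FPKM with 2 decimals, 1 column per library, per the file headers, and columns were assigned by sample title. HISAT, Bowtie2, RSEM 1.2.8 and hg19 are named in the submitters' processing notes without roles; the sources used here do not give the annotation, strand setting or filters. RefSeq symbols (GRCh38.p14) matched 15289 of 16021 rows.

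Log2 ratios of FPKM + 1 understate differences of weakly expressed genes. A fold given for 1 gene is the ratio of deposited FPKM. Counts and list medians used genes at a mean of 1 FPKM or more. No test is possible between single libraries. Depth was estimated from 112 and 114 short genes with 1 annotated transcript (GENCODE v29), whose FPKM times length, less 125 bases, should fall on whole fragments: 67.9% and 64% lay within 0.15 of a whole number, against 30% for evenly spread values, at a step and length chosen for the best match. Fragment numbers use the longest coding transcript and are approximate. Of 50-base windows of the EMT transcripts, 0% were shared with another gene, except 0.943% for ZEB2 and 3.07% for CDH11.

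The genes and lists were chosen with earlier results of these data known. Named genes are the EMT genes, DDX5, up to 5 genes per list with the largest absolute ratio, and 14 genes named throughout (CDH1, EPCAM, FN1, TCF3, TCF4, TCF12, ID1, ID2, ID3, TGFB1, TGFB2, TGFBR1, TGFBR2 and CTNNB1). Genes outside this rule are marked, or serve as markers, cadherins or printed sequences. The computing of calls was checked on simulated data with changes well beyond 2-fold and little noise. That check does not bear on calls near the 2-fold line. The results were recomputed with pseudocounts of 0.1 and 5, and with the level filter dropped or raised to 5 FPKM. They were also recomputed at the same total FPKM with and without 83 ribosomal protein genes. The last alternatives centred all genes on their median or their trimmed mean (30% from each end). The software was Python 3.11.15 with matplotlib 3.10.9, scipy 1.17.1, pandas 2.3.3 and numpy 2.4.6.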

Additional observations from a re-analysis of the deposited data

How the results depend on the processing

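No log2 ratio of the 7 EMT genes at a mean of 1 FPKM or more changed sign under any of 8 alternatives. Only the scalings and centrings among these could have changed a sign. Their ranges were 0.89 to 1.01 for TWIST1, 0.70 to 0.83 for SNAI2, 0.37 to 0.64 for ZEB2, 0.17 to 0.29 for ZEB1, -0.59 to -0.37 for SNAI1, -0.43 to -0.32 for VIM and -0.57 to -0.45 for S100A4. The 1 gene at 2-fold, TWIST1, was 2-fold higher under 3 alternatives and fell short under 5, leaving 0 genes: a pseudocount of 5, the same total with and without ribosomal protein genes, and both centrings. By construction, a larger pseudocount shrinks ratios and no pseudocount changes their sign. A centring shifts all ratios alike. Setting the same total moves ratios in the same direction, but less for genes near 0 FPKM, because the pseudocount is added after scaling. A changed level filter leaves each ratio as it was, so TWIST1 could not move under either filter setting. Over all genes, 743 were 2-fold higher and 390 lower with a pseudocount of 0.1, and 194 and 102 with a pseudocount of 5, against 478 and 258. The median of the EMT genes was 0.17 at the same total and 0.04 with no filter, which brings in CDH2 and CDH11. The medians of the epithelial and the cadherin lists became 0.97 and -0.41 with a filter at 5 FPKM, where fewer genes remain, and that of the other intermediate filament list became 0 with no filter. Among the lists, 2-fold calls were lost with a pseudocount of 5 for SMAD6, KRT8, DCN, KRT10, S100A1 and S100A2, and at the same total for DCN and KRT10. They were gained at the same total for S100A10, with a pseudocount of 0.1 for OCLN, COL1A2, CDH19 and S100A3, and with no filter for S100P. With a filter at 5 FPKM, KRT8 was not counted. Depth limits CDH1, CDH2, CDH11, EPCAM and TGFBR2, each at about 25 fragments or fewer. The spread between cultures was not measured.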

Other observations

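Genes of the families to which VIM and S100A4 belong differed in both directions. Among other intermediate filament genes, 10 of 18 passed the filter, 2 were 2-fold higher and 3 were 2-fold lower, beside 4.19% and 2.26% of all genes. The median log2 ratio was -0.57, and 0 over the 15 genes with a row. PRPH, the neuronal type III filament gene peripherin, stood at 6.93 FPKM in the control and 28.95 FPKM after DDX5 shRNA, about 318 and 1312 fragments, whereas VIM, of the same filament type, was lower. KRT10 had 4.48 FPKM in the control and 10.32 FPKM after DDX5 shRNA. Its log2 ratio of 1.05 became 0.95 at the same total and 0.69 with a pseudocount of 5, so that 1 gene was then 2-fold higher. The nuclear lamina genes LMNB1 and LMNB2 were lower, at 100.61 and 38.98 FPKM and at 104.04 and 48.77 FPKM.

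Among other S100 genes, 8 of 17 passed the filter, 1 was 2-fold higher and 1 was 2-fold lower, beside the same shares of all genes. The list also held S100PBP, a gene outside the naming rule. It encodes a binding partner of S100P and is not a family member, and it passed the filter with a log2 ratio of 0.11. The median log2 ratio was 0.21, and 0.43 over the 11 genes with a row. S100A1 stood at 10.25 and 24.78 FPKM and S100A2 at 10.41 and 4.61 FPKM. With a pseudocount of 5 neither was at 2-fold (log2 ratios of 0.97 and -0.68). S100A10, the annexin A2 partner, stood at 278.95 and 145.98 FPKM, and at the same total its log2 ratio of -1.04 brought the number of genes 2-fold lower to 2. S100A11 stood at 396.21 and 661.49 FPKM, so the abundant S100 genes went both ways. S100A3 stood at 3.61 and 1.49 FPKM. S100A6, named after its value was seen, was listed at 0 and 0.5 FPKM.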
